A study of Mus musculus with 18 samples.

Results

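The genes described here are 34 genes of the cell cycle, 14 of DNA replication and 20 of mitosis, out of the 47729 genes in each count table. They were chosen by name: a row of the tables was taken where its Ensembl gene ID carries 1 of the 34 symbols in the GENCODE M21 annotation of the mouse genome build GRCm38. The replication genes were Pcna, Mcm2, Mcm3, Mcm4, Mcm5, Mcm6, Mcm7, Gins2, Cdt1, Tyms, Tk1, Rrm1, Rrm2 and Uhrf1. The mitosis genes were Ccna2, Ccnb1, Ccnb2, Cdk1, Plk1, Aurka, Aurkb, Birc5, Bub1, Bub1b, Cdc20, Ube2c, Cenpa, Cenpf, Kif11, Tpx2, Stmn1, Top2a, Mki67 and Hmgb2. All 34 had a row in every table and passed the low-count filter that left 14675 genes for testing.

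RNA was sequenced from sorted epithelial cells of the ileum, the last segment of the small intestine, of female mice. There were 6 virgin, 6 pregnant and 6 pseudopregnant libraries, where pseudopregnancy is the hormonal state that follows a sterile mating or its equivalent. All groups were on the same RM1 chow in the experiment. The labels used here do not give strain, age, gestational stage, the means of making mice pseudopregnant, the antibodies of the sort or processing batches. The labels do not say that the replicates are separate animals, so the p-values measure the spread between these libraries, which may be technical.

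In the gut epithelium, cell division is confined to the crypts. Stem cells at the crypt base and the transit-amplifying cells above them pass through S phase and mitosis, and their daughters leave the cycle as they move up onto the villus and become enterocytes or secretory cells. Replication genes are transcribed mainly around the entry into S phase under E2F factors. Mitosis genes peak in G2 and M phase. The DREAM and MuvB complexes that regulate them bind a short element called the cell cycle genes homology region (CHR), which often has a CCAAT box beside it. The RNA of both sets in a sample of epithelium therefore comes largely from crypt cells. In bulk RNA, fewer cycling cells and less RNA per cycling cell cannot be told apart.

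The libraries held 24.9 to 37.3 M counts (median 31.5), and the members' share of them ran from 0.0677% to 0.173%. A member had between 82 counts (Gins2) and 8303 counts (Hmgb2) in a library, so counting error was small beside the spread between libraries. Levels are given in CPM, the count of a gene relative to library size, scaled by the trimmed mean of M-values (TMM). The epithelial gene Epcam was at 1640 to 3590 CPM, and Cdh1 at 612 to 801. Markers of lymphocytes were near 0, with a summed level of 0.449 to 3.96 CPM for 9 T cell markers and 0.678 to 2.94 for 7 B and plasma cell markers. The 11 stromal and endothelial markers summed to 3.33 to 14.1 CPM and the 8 myeloid markers to 14.4 to 46.6, within the range of single members. Of the lymphocyte genes, Cd3e and Cd79a were at 0 in some libraries and reached at most 0.318 and 0.0615 CPM. The library labelled virgin replicate 3 stood apart from the other 5 virgin libraries in its members' levels, and results that rest on it are given with and without it.

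Among the replication genes, Pcna, which encodes the sliding clamp of the DNA polymerases, had the highest level per length, at 78.5 CPM per kb of its principal transcript averaged over the 18 libraries. Pcna (ENSMUSG00000027342, chr2:132249162-132253314, minus strand) was at 92.6 to 164 CPM (median 132) in virgin, 85.5 to 145 (median 109) in pregnant and 94.2 to 153 (median 101) in pseudopregnant libraries. The ranges overlapped, although 5 of the 6 pseudopregnant libraries lay below the virgin median.

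Mcm2 to Mcm7 encode the 6 subunits of the MCM helicase that unwinds DNA at the replication fork. Their levels per length ran from 6.53 CPM per kb (Mcm2) to 17.2 (Mcm6). Mcm2 (ENSMUSG00000002870, chr6:88883474-88898780, minus strand) was at 11.3 to 28.0 CPM (median 23.4) in virgin, 14.9 to 25.3 (median 17.9) in pregnant and 14.7 to 32.0 (median 27.9) in pseudopregnant libraries. Mcm5 was at 31.6 ± 8.72, 27.6 ± 6.88 and 33.2 ± 10.1 CPM in virgin, pregnant and pseudopregnant libraries (mean ± SD, n = 6, as for all later values of this form, and in this order of groups). Mcm3 was at 21.2 ± 5.51, 18.9 ± 5.03 and 22.1 ± 8.18 CPM, and Mcm4 at 25.4 ± 6.06, 22.4 ± 5.71 and 25.6 ± 7.05. Mcm6 was at 49.4 ± 13.1, 49.0 ± 11.1 and 51.6 ± 13.3, and Mcm7 at 36.7 ± 7.94, 35.7 ± 8.38 and 37.7 ± 9.94. For all 6 subunits the pregnant mean was the lowest and the pseudopregnant mean the highest. The differences between these means were smaller than the SD of each group, except that pregnant and pseudopregnant Mcm2 differed by more than the pregnant SD.

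Gins2, a subunit of the GINS complex that joins the helicase, had the lowest level per length of the set, 1.63 CPM per kb (6.90 ± 1.72, 5.83 ± 1.81 and 6.31 ± 1.65 CPM). Cdt1, which loads the helicase onto origins, varied least between libraries, by 1.69-fold from the lowest to the highest (20 ± 3.23, 18.9 ± 3.42 and 18.5 ± 1.94 CPM). The nucleotide enzymes were thymidylate synthase (Tyms, 18.3 ± 4.52, 16.1 ± 3.75 and 17.6 ± 4.72 CPM), thymidine kinase (Tk1, 26.1 ± 6.93, 21 ± 5.8 and 22.3 ± 4.97) and the subunits of ribonucleotide reductase, Rrm1 (42.9 ± 10.5, 37.7 ± 9.21 and 44.2 ± 11.9) and Rrm2 (16.4 ± 4.65, 14.6 ± 4.38 and 16.8 ± 5.82). Uhrf1, which helps to copy DNA methylation onto the new strand, was at 21.4 ± 5.85, 20.9 ± 6.66 and 26.7 ± 11.8, with pseudopregnant libraries from 11.4 to 38.1. In pregnant libraries each of these 7 genes had a mean below its virgin mean.

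Of the cyclins and kinases that drive mitosis, Ccna2 (cyclin A) was at 54.1 ± 14.9, 46.5 ± 9.95 and 53.7 ± 15.4 CPM. The B cyclins were at 20.8 ± 6.23, 17.5 ± 4.91 and 22.0 ± 7.28 (Ccnb1) and at 32.1 ± 7.23, 26.5 ± 7.68 and 27.1 ± 5 (Ccnb2). Their partner Cdk1 (ENSMUSG00000019942, chr10:69335146-69352938, minus strand) was at 16 to 38.8 CPM (median 34.3) in virgin, 15 to 34.9 (median 25.4) in pregnant and 17.4 to 42.8 (median 25.8) in pseudopregnant libraries. For Cdk1, 5 of the 6 libraries in each of the latter groups lay below the virgin median. The mitotic kinases Plk1 (19.1 ± 4.07, 16.5 ± 3.75 and 19.4 ± 6.62), Aurka (20.9 ± 4.21, 16.9 ± 4.65 and 17.3 ± 4.67) and Aurkb (16.5 ± 3.68, 14 ± 3.58 and 15.4 ± 5.23) were at 7.84 to 9.63 CPM per kb. Birc5, which encodes the Aurora B partner survivin, was at 36.2 ± 10.1, 30.7 ± 15.1 and 27.7 ± 10.3 CPM.

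The spindle checkpoint genes Bub1 (9.19 ± 2.77, 8.53 ± 2.20 and 10.5 ± 4.08 CPM) and Bub1b (15.3 ± 4.77, 13.8 ± 3.81 and 19.1 ± 8.34) had their highest means in pseudopregnant libraries. The anaphase-promoting complex activator Cdc20 (34.4 ± 7.64, 29.5 ± 8.54 and 29.8 ± 7.48) and its ubiquitin-conjugating enzyme Ube2c (47.8 ± 14.4, 38.2 ± 13.5 and 35.9 ± 10.5) had theirs in virgin libraries. The centromere histone Cenpa was at 23.9 ± 5.34, 19.1 ± 7.42 and 20.1 ± 5.12 CPM, and the kinetochore gene Cenpf at 12.9 ± 3.78, 12.7 ± 5.22 and 19.1 ± 10.3. Cenpf varied most of the 34 members, by 5.16-fold from pseudopregnant replicate 1 to pseudopregnant replicate 5. The spindle motor Kif11 (26.1 ± 6.28, 23.1 ± 5.69 and 30.6 ± 12.1) and the spindle assembly factor Tpx2 (18.9 ± 4.70, 16.6 ± 3.79 and 20.7 ± 7.22) again had their highest means in pseudopregnant libraries.

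Stmn1, which encodes the microtubule destabiliser stathmin, had the highest level per length of all 34 members (108 CPM per kb), and Cenpf the lowest (1.34). Stmn1 (ENSMUSG00000028832, chr4:134468320-134473843, plus strand) was at 60.5 to 199 CPM (median 137) in virgin, 50.9 to 205 (median 111) in pregnant and 63.1 to 142 (median 78.4) in pseudopregnant libraries. The chromatin protein gene Hmgb2 (ENSMUSG00000054717, chr8:57511907-57515999, plus strand) was at 123 to 285 CPM (median 229), 109 to 267 (median 173) and 124 to 229 (median 142) in the same order. In pseudopregnant libraries, no Hmgb2 value exceeded the virgin median, and 1 of the 6 Stmn1 values did. Top2a, topoisomerase II alpha (ENSMUSG00000020914, chr11:98992943-99024189, minus strand), was at 57.2 to 110 CPM (median 87.3), 51.3 to 104 (median 83.3) and 48.5 to 157 (median 119). The proliferation marker Mki67 (ENSMUSG00000031004, chr7:135689784-135716361, minus strand) was at 37.4 to 73.1 CPM (median 58.2), 32.9 to 93.9 (median 53.9) and 35.1 to 152 (median 96.8). Mki67 exceeded the highest virgin library in 4 of the 6 pseudopregnant libraries (replicates 2, 4, 5 and 6, at 113, 123, 152 and 80.5 CPM) and was below the lowest virgin library in replicate 1 (35.1 CPM).

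**Figure D1:**
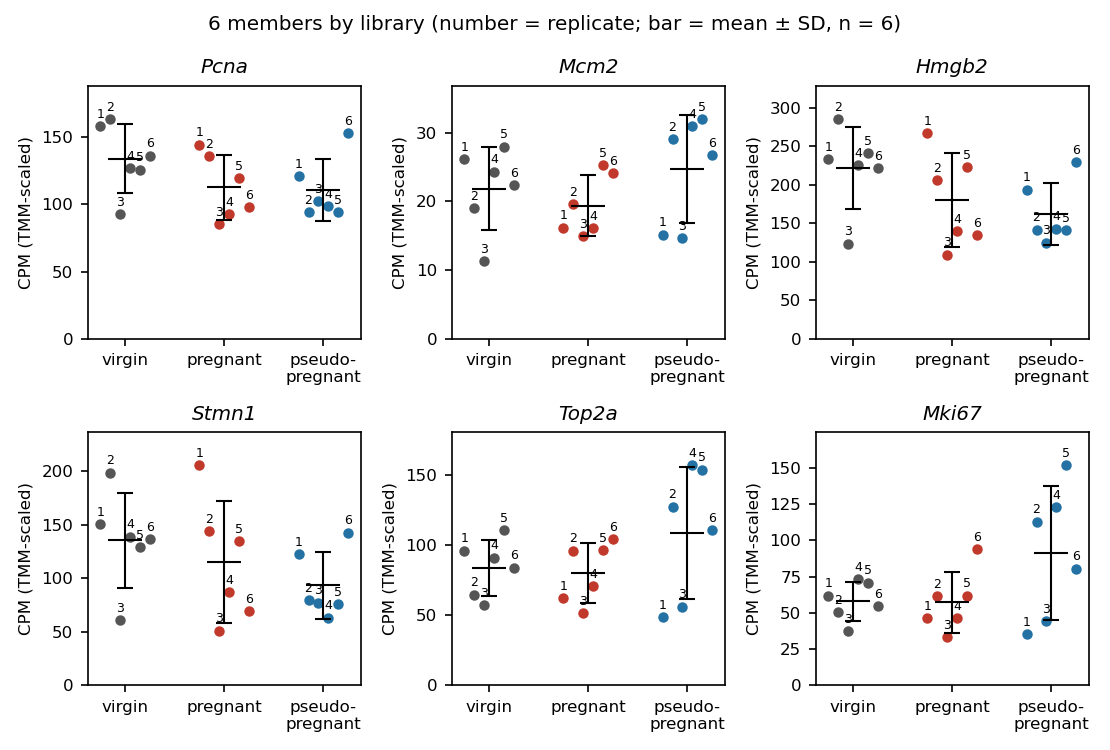
Level of 6 members in each library (y axis, TMM-scaled CPM) for virgin, pregnant and pseudopregnant libraries, with points numbered by replicate and bars for mean ± SD (n = 6). The groups overlap for all 6 genes, virgin replicate 3 is the lowest virgin library in each panel, and pseudopregnant replicates 2, 4 and 5 lie above all virgin libraries for Top2a and Mki67 and below the virgin median for Stmn1 and Hmgb2.

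The members varied together from library to library. Over the 18 libraries, the median correlation between pairs of members was r = 0.85 within the replication set (91 pairs), 0.75 within the mitosis set (190 pairs) and 0.80 between a replication and a mitosis gene (280 pairs). With group means removed these were 0.86, 0.75 and 0.82. The mean log2 deviation of the replication set ran from -0.75 to 0.45 and that of the mitosis set from -0.77 to 0.42, while their difference within a library stayed between -0.09 and 0.10. These correlations describe 18 libraries that share scaling and depth and are given with no test. The lowest correlation of any pair was -0.30, between Cenpf and Birc5.

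**Figure D2:**
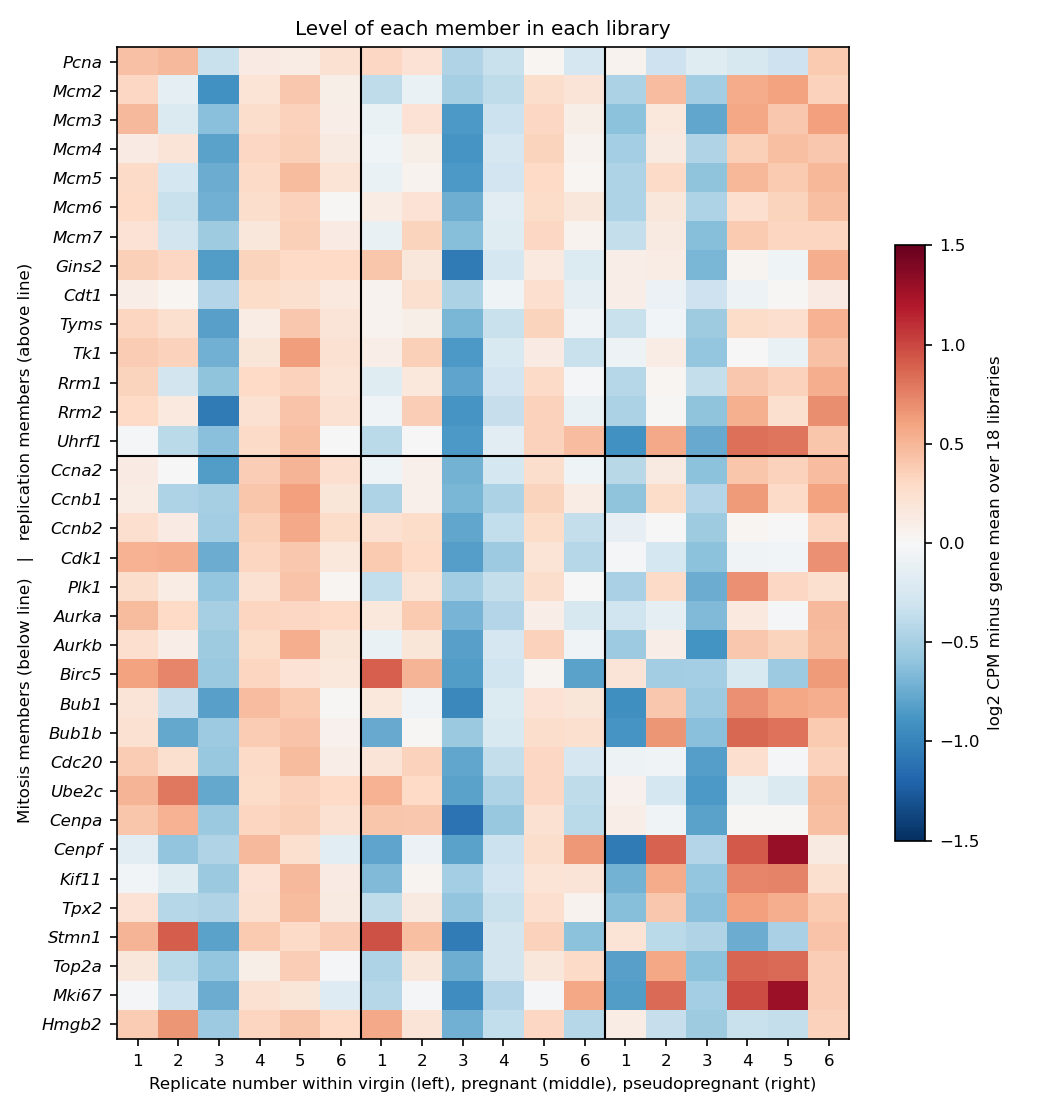
Log2 CPM of each member (rows, replication above the line and mitosis below) minus its mean over the 18 libraries, by library (columns, replicate number within group), from blue (low) to red (high). The values run from -1.10 (Cenpa, pregnant replicate 3) to 1.31 (Cenpf, pseudopregnant replicate 5), and the columns of virgin and pregnant replicate 3 hold the lowest value of their group for 32 of the 34 members each.

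Library by library, the low values fell on the same samples for both sets. Replicate 3 was the lowest library of its group for 32 of the 34 members in virgin, for 32 in pregnant and for 19 in pseudopregnant mice, where replicate 1 was the lowest for 12 more. The 5 libraries with the lowest summed mitosis levels (467 to 708 CPM, against 741 to 1070 in the other 13) were virgin replicate 3, pregnant replicates 3 and 4 and pseudopregnant replicates 1 and 3. The same 5 had the lowest summed replication levels (275 to 364 against 429 to 590 CPM). They also had the highest sums of the 20 enterocyte markers (58200 to 72800 against 30200 to 48000 CPM). Their sums of the 12 stem cell markers were 278 to 440 CPM against 370 to 947, and those of the 10 Paneth cell markers 4000 to 22400 against 14800 to 39800. Across the 18 libraries, the mitosis score correlated with the stem cell score at r = 0.79 and with the enterocyte score at r = -0.77, values that share the libraries and their scaling. The part of these markers in the members' levels was not tested between libraries.

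**Figure D3:**
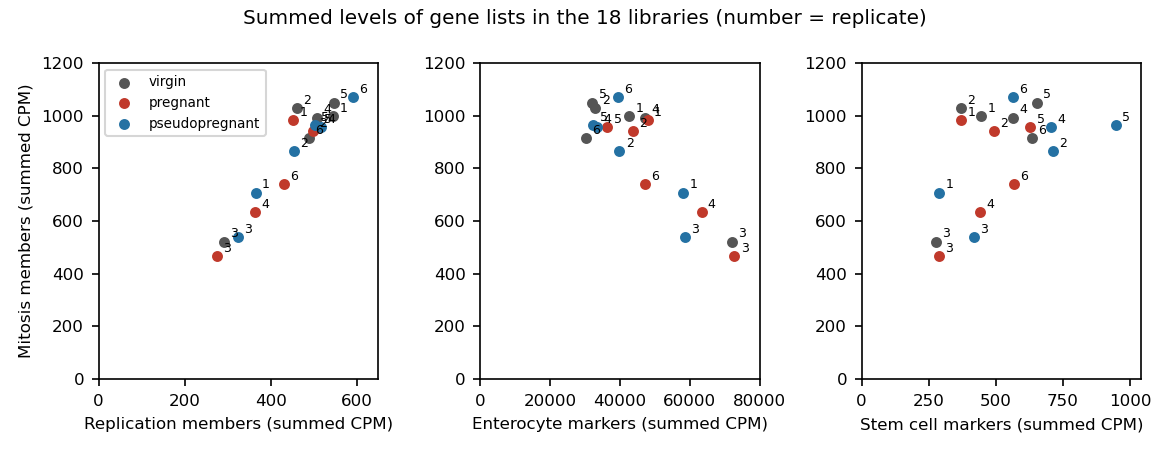
Summed CPM of the mitosis members (y axis, same in all panels) against summed CPM of the replication members, the enterocyte markers and the stem cell markers in the 18 libraries, coloured by group and numbered by replicate. The replication and mitosis sums lie close to a line, and the 5 libraries with the lowest sums of both are the 5 with enterocyte sums of 58200 CPM or more.

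The members were more variable within groups than other genes. The median within-group SD of log2 CPM was 0.419 for the replication and 0.476 for the mitosis genes, against 0.291 for the 8559 tested genes in the members' range of levels.

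Since the mean levels of the sets varied together in these libraries, their promoters were examined for the elements by which they are usually told apart. RefSeq promoter windows of GRCm38.p6 (from 250 bases before to 50 after a gene's start) were at hand for 28 of the 34 members, 12 of the replication and 16 of the mitosis set, and none was at hand for Gins2, Mcm4, Ccna2, Aurkb, Tpx2 and Stmn1. Matches were sought on both strands to TTTGAA or TTCGAA (CHR), to CCAAT, and to TTT followed by a pair of bases that are each C or G and then CGC (E2F). A CHR match was present in 14 of 16 mitosis genes (87.5%), in 2 of 12 replication genes (16.7%) and in 21.7% of the 27025 genes with a window. All 14 of those mitosis genes also held CCAAT (87.5%, against 9.65% of all genes with both). An E2F match was present in 6 of 12 replication genes (50%), in 1 of 16 mitosis genes (6.25%, Cdk1) and in 2.60% of all genes. A match is a description of the letters and does not show that a factor binds there.

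The 120 bases before the start of 5 mitosis genes with values of note are shown 5′ to 3′ on the gene's strand, because they carry the CHR and CCAAT letters. Capitals mark matches of any of the 3 motifs, also where one is read on the other strand, as ATTGG for the CCAAT box. A CHR match on the other strand appears as TTCAAA. Positions are counted back from -1, the base before the start.
Cdk1 (chr10:69352913-69353032, minus strand): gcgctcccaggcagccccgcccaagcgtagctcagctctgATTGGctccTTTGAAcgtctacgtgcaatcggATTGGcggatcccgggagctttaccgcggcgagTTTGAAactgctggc
Cdc20 (chr4:118437344-118437463, minus strand): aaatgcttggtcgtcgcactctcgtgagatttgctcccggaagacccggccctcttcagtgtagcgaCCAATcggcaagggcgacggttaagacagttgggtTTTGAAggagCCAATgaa
Hmgb2 (chr8:57511723-57511842, plus strand): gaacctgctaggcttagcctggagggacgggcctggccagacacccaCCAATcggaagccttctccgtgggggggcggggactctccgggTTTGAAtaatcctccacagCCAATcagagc
Mki67 (chr7:135716380-135716499, minus strand): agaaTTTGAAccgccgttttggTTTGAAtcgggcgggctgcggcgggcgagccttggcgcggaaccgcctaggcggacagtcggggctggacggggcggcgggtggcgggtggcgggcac
Top2a (chr11:99024190-99024309, minus strand): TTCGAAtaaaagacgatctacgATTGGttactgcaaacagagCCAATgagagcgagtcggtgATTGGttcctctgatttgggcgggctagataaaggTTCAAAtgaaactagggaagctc

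In Cdc20 the CHR match lies at -18 to -13 from the start and is flanked by CCAAT at -53 to -49 and -8 to -4. Cdk1 has CHR matches at -71 to -66 and -15 to -10, and its single E2F match at -131 to -124 lies upstream of the stretch shown. In Mki67 a pair of CHR matches lies at -116 to -111 and -98 to -93, and its 3 CCAAT matches are all upstream of the stretch shown. In all 14 mitosis genes with a CHR match, at least 1 such match was within 100 bases of the start, before or after it. For Aurka, Bub1, Bub1b, Ccnb2, Cenpa, Cenpf and Plk1 the match within that distance lay after the start.

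For the replication set, Mcm6 is shown for its E2F matches, Mcm2 as 1 of the 2 replication genes with a CHR match, and Pcna as a gene with a CCAAT box, on the other strand, and neither of the others.
Mcm6 (chr1:128359706-128359825, minus strand): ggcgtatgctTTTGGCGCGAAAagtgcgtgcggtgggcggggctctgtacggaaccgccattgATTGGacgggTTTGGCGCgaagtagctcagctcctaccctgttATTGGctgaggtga
Mcm2 (chr6:88898781-88898900, minus strand): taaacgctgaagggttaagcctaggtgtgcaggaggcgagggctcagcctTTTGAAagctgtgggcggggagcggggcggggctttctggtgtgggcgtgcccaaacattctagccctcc
Pcna (chr2:132253181-132253300, minus strand): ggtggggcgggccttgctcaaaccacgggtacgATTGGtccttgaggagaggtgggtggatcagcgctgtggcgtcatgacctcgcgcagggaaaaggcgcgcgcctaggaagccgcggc

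Mcm6 holds a pair of overlapping E2F matches, at -110 to -103 on the gene's strand and -106 to -99 on the other, and 1 more at -47 to -40. The other replication genes with an E2F match were Mcm3, Mcm5, Mcm7, Cdt1 and Uhrf1. Mcm2 and Mcm7 had the CHR matches.

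Between pregnant and virgin libraries no member differed by more than the spread between replicates. The fitted log2 fold change was below 0 for all 34 members, against 51.5% of the 14675 genes, but the 34 values are not independent, since the members varied together. No gene of the 14675 passed an adjusted p of 0.05 in edgeR's quasi-likelihood test (0%), and 0 of 34 members had an unadjusted p under 0.05, against 3.68% of all genes (540; 2.02% higher and 1.66% lower in pregnant libraries). DESeq2 called 5 genes (627 unadjusted) and limma-voom 0 (528 unadjusted). The median log2 fold change was -0.17 over the replication genes (range -0.32 to -0.01) and -0.23 over the mitosis genes (-0.34 to -0.02), against -0.01 over all genes.

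Tk1 and Pcna had the smallest p of the replication genes in that comparison. Tk1 was at -0.32 (log2, SE 0.21, adjusted p = 0.89, edgeR quasi-likelihood test) and Pcna at -0.25 (SE 0.16, adjusted p = 0.89). Mcm5 (-0.20, SE 0.23), Tyms (-0.19, SE 0.21), Mcm2 (-0.17, SE 0.23), Rrm2 (-0.17, SE 0.26) and Cdt1 (-0.08, SE 0.14) were nearer to 0, and Mcm6 was nearest (-0.01, SE 0.21). Among the mitosis genes, Aurka (-0.31, SE 0.20) and Ccnb2 (-0.28, SE 0.20) had the smallest p, and Cdk1 the lowest value (-0.34, SE 0.24, 95% interval -0.85 to 0.18). Ccnb1 was at -0.25 (SE 0.24), Cdc20 at -0.22 (SE 0.21), Top2a at -0.07 (SE 0.27) and Mki67 at -0.02 (SE 0.31). Adjusted p-values of the members ran from 0.89 to 0.99 in edgeR's test. All 34 intervals included 0, and they reached down to -0.88 (Stmn1), so differences of that size were not excluded at this spread.

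The medians moved with single libraries and with the enterocyte score. Without virgin replicate 3, Pcna, Tk1, Ccnb2, Cdk1 and Aurka had an unadjusted p under 0.05 (adjusted p 0.34 to 0.38, edgeR quasi-likelihood test), and the medians were -0.31 and -0.35. All 5 were lower and are 14.7% of the members. In the same fit 13.2% of all genes were under that p, 5.79% lower and 7.4% higher. The members' share thus exceeded that of lower genes, but members that varied together are not independent. Without pregnant replicate 3 the medians were -0.07 and -0.12. With each library's enterocyte score as a covariate they were 0.11 for replication and 0.06 for mitosis genes. The enterocyte markers were higher in pregnant libraries for 19 of 20 genes (median 0.44, 5 with an unadjusted p under 0.05, none past the adjusted threshold), with summed levels of 36400 to 72800 CPM against 30200 to 72200 in virgin libraries. Markers of secretory cells were lower in pregnant libraries, as the members were, for 8 of 8 goblet (median -0.34, 1 with an unadjusted p under 0.05), 10 of 10 enteroendocrine (-0.35, 2 with such a p) and 10 of 10 Paneth cell genes (-0.12, 0 with such a p). Also lower were 5 of 6 tested tuft cell (-0.16) and 9 of 12 stem cell genes (-0.08), 0 with such a p. All 18 immediate early and heat shock genes, which respond fast to stimulation and handling, were lower too (-0.20, 4 with such a p). With no library left out, 2.02% of all genes were higher and 1.66% lower at that p, but genes of a list may vary together. None of the markers or of these 18 genes passed the adjusted threshold, and their part in the members' values was not tested.

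Between pseudopregnant and virgin libraries the members split in direction, with 9 of 14 replication genes and 9 of 20 mitosis genes above 0. No gene passed the adjusted threshold in edgeR's test (0% of 14675), in DESeq2 (1504 unadjusted) or in limma-voom (1107 unadjusted). An unadjusted p under 0.05 was found for 1 of 34 members, Mki67, which was higher, against 7.36% of all genes higher, 2.01% lower and 9.37% in either direction. Adjusted p-values of the members ran from 0.52 to 0.98 in edgeR's test. The medians were 0.03 for the replication and -0.06 for the mitosis genes, against 0.00 over all genes, of which 49.4% were below 0. Higher were also 17 of 20 enterocyte (median 0.19), 10 of 12 stem cell (0.24) and 3 of 6 tested tuft cell markers (0.01). Lower were 10 of 10 Paneth cell (-0.46), 10 of 10 enteroendocrine (-0.21) and 6 of 8 goblet markers (-0.29), and all 18 immediate early and heat shock genes (-0.25). Of these, 1 enterocyte (higher), 1 stem cell (lower) and 3 immediate early or heat shock genes (lower) had an unadjusted p under 0.05. Their part in the members' values was not tested.

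Mki67 was at 91.3 ± 46.2 CPM in pseudopregnant against 58.0 ± 13.4 in virgin libraries, a log2 fold change of 0.65 (SE 0.31, 95% interval 0.01 to 1.30, unadjusted p = 0.046, adjusted p = 0.52, edgeR quasi-likelihood test). With 1 library left out it ran from 0.45 (without pseudopregnant replicate 5) to 0.80 (without pseudopregnant replicate 1). It was 0.49 by limma-voom and 0.12 with the slope of level on transcript length as a covariate, and neither had an unadjusted p under 0.05. Top2a was at 0.38 (SE 0.27) and Cenpf at 0.57 (SE 0.34), both high in the same pseudopregnant replicates 2, 4 and 5. Stmn1 had the lowest value, -0.54 (SE 0.31, 95% interval -1.18 to 0.10), and Hmgb2 was at -0.45 (SE 0.22, 95% interval -0.92 to 0.01). The mitosis set thus held both the highest and the lowest member of this comparison. Cdk1 (-0.25, SE 0.24), Aurka (-0.27, SE 0.20) and Cdc20 (-0.21, SE 0.21) were below 0, and Ccnb1 (0.09, SE 0.24) above it.

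The 14 replication genes ran from -0.28 to 0.32, within the range of the 20 mitosis genes. The mitosis genes also spanned more transcript lengths (0.9 to 11.1 kb, against 1.4 to 4.0 kb). Among the replication genes the order was as follows. Pcna was lowest (-0.28, SE 0.16) and Uhrf1 highest (0.32, SE 0.29). Mcm2 was at 0.18 (SE 0.23), Mcm5 at 0.07 (SE 0.23), Rrm2 at 0.03 (SE 0.26), Tyms at -0.06 (SE 0.21) and Cdt1 at -0.11 (SE 0.14). Without virgin replicate 3 the medians were -0.09 for the replication and -0.18 for the mitosis genes. The count of members under an unadjusted p of 0.05 depended on single libraries. It was 4 without virgin replicate 3 (Pcna, Ube2c, Stmn1 and Hmgb2, all lower), 4 without pseudopregnant replicate 6 (the same 4 genes, lower) and 4 without pseudopregnant replicate 1 (Mki67, Top2a and Cenpf higher, Hmgb2 lower). In each of the 3 fits these 4 were 11.8% of the members. Of all genes, 17.5%, 15.4% and 22.9% were under that p in either direction. Split by direction, 6.32%, 4.76% and 10.6% were lower and 11.1%, 10.7% and 12.3% higher. Without virgin replicate 3 or pseudopregnant replicate 6, where all 4 members were lower, their share exceeded that of lower genes. The members varied together, so these 4 are not independent. The count was 0 without virgin replicate 1, 2 or 6 or pseudopregnant replicate 2, 4 or 5. The adjusted p stayed at or above 0.17 in edgeR's test in every one of these.

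Between pregnant and pseudopregnant libraries, 28 of 34 members were lower in the pregnant ones, 12 of 14 replication and 16 of 20 mitosis genes, against 51.6% of all genes. This comparison shares its libraries with the 2 above and is not independent of them. Lower in the pregnant libraries were also 11 of 12 stem cell (median -0.35), 6 of 8 goblet and 8 of 10 enteroendocrine markers. Higher were 19 of 20 enterocyte (median 0.19) and 8 of 10 Paneth cell markers. None of these markers had an adjusted p under 0.05 in edgeR's test, and their part in the members' values was not tested. No gene passed the adjusted threshold (0% of 14675) in edgeR's test, in DESeq2 (389 unadjusted) or in limma-voom (247 unadjusted). Mki67 was again the 1 member with an unadjusted p under 0.05, lower in pregnant libraries, where 1.59% of all genes were lower, 0.763% higher and 2.35% under it in either direction. Its log2 fold change was -0.68 (SE 0.31, 95% interval -1.32 to -0.03, unadjusted p = 0.040, adjusted p = 0.92, edgeR quasi-likelihood test).

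The medians of that comparison were -0.16 for replication and -0.17 for mitosis genes, against -0.01 over all genes. Cenpf was at -0.59 (SE 0.34), Top2a at -0.44 (SE 0.27), Ccnb1 at -0.34 (SE 0.24), Cdk1 at -0.08 (SE 0.24), Aurka at -0.04 (SE 0.20) and Cdc20 at -0.02 (SE 0.21). Stmn1 was the highest member (0.30, SE 0.31). Of the replication genes, Mcm2 (-0.35, SE 0.23) and Uhrf1 (-0.35, SE 0.29) had the smallest p, with Mcm5 at -0.27 (SE 0.23), Rrm2 at -0.20 (SE 0.26), Tyms at -0.13 (SE 0.21), Pcna at 0.02 (SE 0.16) and Cdt1 at 0.03 (SE 0.14). The count under an unadjusted p of 0.05 was 5 without pseudopregnant replicate 1 or 3 (Mki67, Top2a, Cenpf, Kif11 and Bub1b) and 2 without pregnant replicate 6 (Mki67 and Cenpf). All of these were lower in pregnant libraries and made up 14.7%, 14.7% and 5.88% of the members. In the same fits 10.6%, 5.20% and 6.79% of all genes were under that p in either direction. Those lower were 5.85%, 3.63% and 5.04%. The count was 0 without pregnant replicate 1, 2, 3 or 4 or pseudopregnant replicate 2, 4 or 5.

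**Figure D4:**
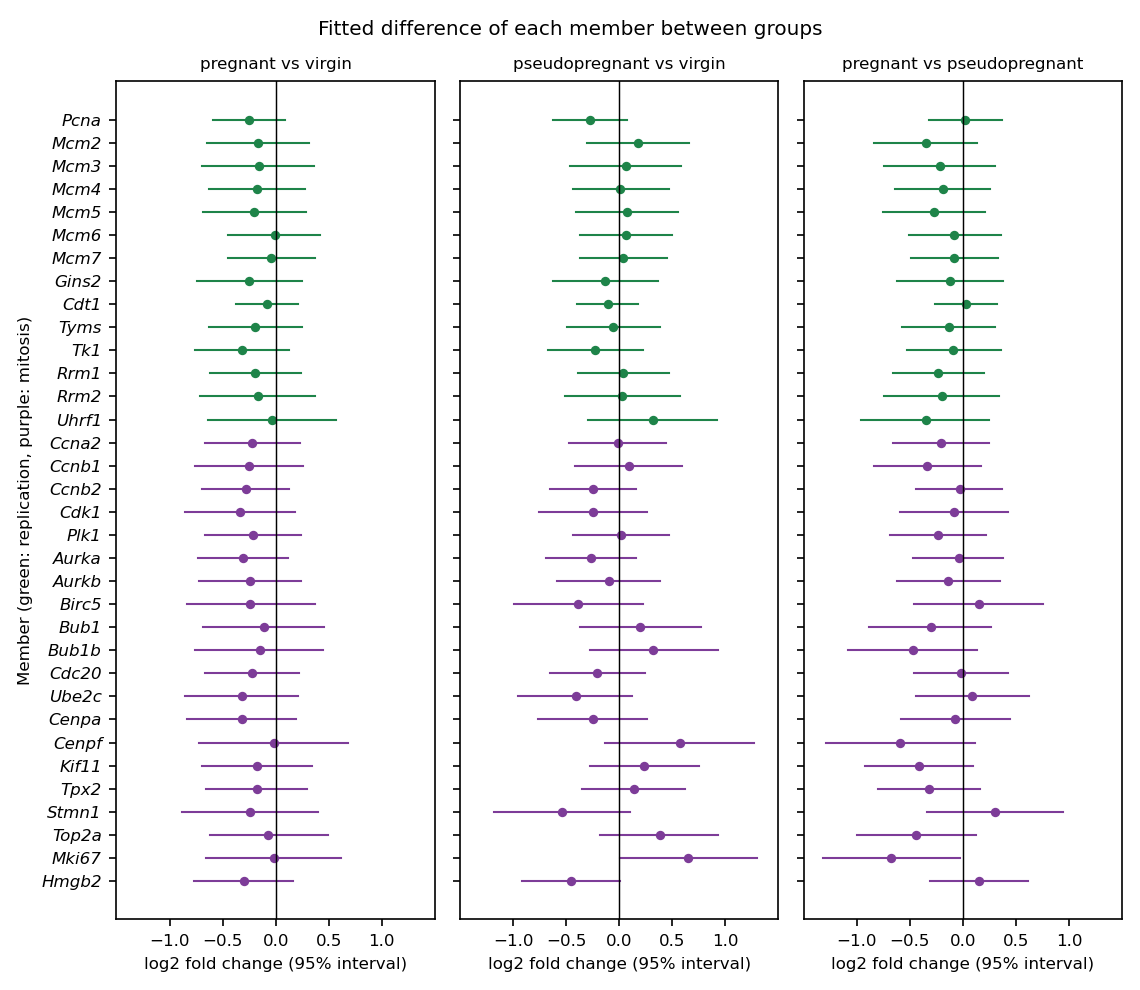
Fitted log2 fold change (points) with its 95% interval (lines) for each member in the 3 comparisons, replication genes in green and mitosis genes in purple. All points of pregnant against virgin lie below 0 with intervals that include it, and the interval of Mki67 is the 1 that leaves out 0 in each of the other comparisons.

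Over the 34 members, Spearman's rho between log2 fold change and the length of the principal transcript was 0.76 for pseudopregnant against virgin, 0.56 for pregnant against virgin and -0.78 for pregnant against pseudopregnant. Over the 20 mitosis genes, whose lengths ran from 0.9 kb (Birc5) to 11.1 kb (Cenpf), it was 0.80, 0.65 and -0.83 in the same order. Over the 14 replication genes, whose lengths ran from 1.4 kb (Tk1) to 4.0 kb (Rrm1), it was 0.43, 0.00 and -0.63. Over 12262 tested genes with a principal transcript, the members included, rho was 0.65, 0.41 and -0.45 in the same order. These are correlations across genes, which are not independent replicates.

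In pseudopregnant against virgin libraries, all 10 members under 2 kb were below 0 (median -0.26, against -0.21 over all 2573 genes of that length with a mean of at least 5 CPM). Of the 18 members of 2 to 4 kb, 13 were above 0 (median 0.04, against 0.01). Of the 6 members over 4 kb, 5 were above 0 (median 0.30, against 0.24), and Cdk1, with an annotated transcript of 4.4 kb, was the exception at -0.25. Hmgb2, at 2.6 kb, was below its length class as well (-0.45). In pregnant against virgin libraries the medians of the 3 classes were -0.27, -0.17 and -0.12, each lower than that of all genes of the class (-0.11, 0.01 and 0.12).

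The slope of log2 level on log2 length, computed in each library from 7928 genes that exclude the members, ran from -0.33 to 0.37. Mki67 (10.1 kb) exceeded Stmn1 (1.1 kb) in CPM in 4 libraries, pregnant replicate 6 and pseudopregnant replicates 2, 4 and 5, by 0.45, 0.51, 0.96 and 1.01 on the log2 scale. Those 4 libraries had the highest slopes (0.22, 0.26, 0.28 and 0.37). In the other 14 libraries Mki67 was below Stmn1, with log2 differences of -2.15 to -0.63, and the slopes were -0.33 to 0.08. With the slope as a covariate, the pseudopregnant against virgin values were 0.12 for Mki67, -0.03 for Top2a, -0.14 for Hmgb2 and -0.04 for Stmn1, and no member had an unadjusted p under 0.05. The slope itself did not follow the members' common level (r = 0.01 with the mitosis score). RNA quality was not measured in the files, and its part in the slope was not tested.

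**Figure D5:**
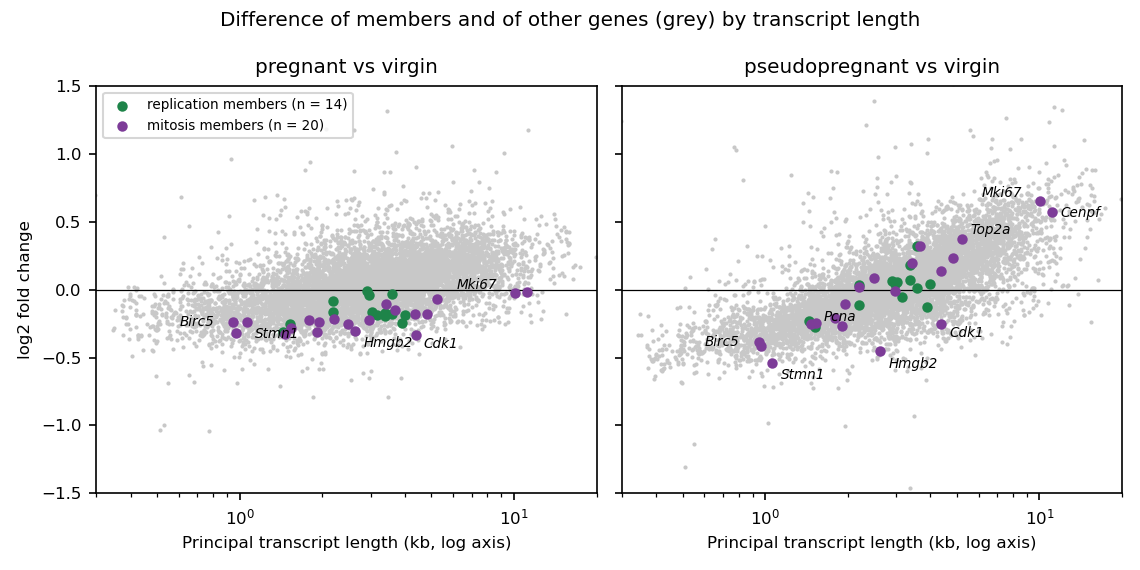
Log2 fold change (y axis) against length of the principal transcript (x axis, kb, log scale) for pregnant (left) and pseudopregnant (right) against virgin libraries, with replication genes in green, mitosis genes in purple and other genes in grey. In the right panel the members lie along the slope of the grey points, from Stmn1 and Birc5 at the short end to Mki67 and Cenpf at the long end, with Cdk1 and Hmgb2 below it, and 9 and 14 of the 7962 genes lie outside the axes on the left and right.

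Further genes of the pathway were taken from lists of 49 replication and 55 mitosis genes that hold none of the 34. In pregnant against virgin libraries, 42 of the 49 and 50 of the 55 were below 0, with medians of -0.12 and -0.21, and none passed the adjusted threshold. Under an unadjusted p of 0.05 were 1 of 49 and 0 of 55, against 3.68% of all genes. Rfc3, a subunit of the clamp loader, was the 1 with an unadjusted p under 0.05 (-0.34, SE 0.16, 9.75 ± 2.47 CPM in pregnant and 12.3 ± 1.76 in virgin libraries), followed among replication genes by the origin recognition gene Orc6 (-0.39, SE 0.21). Cks2 (-0.42, SE 0.22), a subunit of the cyclin-dependent kinases, and the cytokinesis motor Kif23 (-0.30, SE 0.16) had the smallest p of the mitosis list.

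In pseudopregnant against virgin libraries, 21 of 49 replication genes and 35 of 55 mitosis genes were above 0 (medians -0.05 and 0.06). Under an unadjusted p of 0.05 were 2 replication genes higher (Orc3 and Ticrr), 1 lower (Rfc2) and 1 mitosis gene higher (Knl1), shares of both lists below the 9.37% of all genes under that p in this comparison. Ticrr, which helps to fire origins, was named for this count after its value was seen (0.75, SE 0.35). The kinetochore gene Knl1, with a transcript of 7800 bases, was at 0.83 (SE 0.39) and the spindle pole gene Aspm, of 9867 bases, at 0.68 (SE 0.34). Orc3 was at 0.30 (SE 0.14) and the clamp loader gene Rfc2 at -0.33 (SE 0.15). In pregnant against pseudopregnant libraries, 36 of 49 and 49 of 55 were below 0 (medians -0.13 and -0.26), and 0 had an unadjusted p under 0.05 in either list, against 2.35% of all genes. The smallest p were those of Gins3 (-0.37, SE 0.21) and Ticrr (-0.63, SE 0.35) for replication and of Kif23 (-0.33, SE 0.16) and Knl1 (-0.76, SE 0.39) for mitosis.

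Among 24 genes that control entry into the cycle, 16 were lower and 8 higher in pregnant than in virgin libraries (median -0.11). Cdkn1b, which encodes the inhibitor p27, was higher (0.21, SE 0.10, unadjusted p = 0.043, adjusted p = 0.89, edgeR quasi-likelihood test) at 55.2 ± 4.85 against 47.6 ± 6.61 CPM, and Ccnd2 (cyclin D2) was at -0.42 (SE 0.20). Myc was at -0.45 in both pregnant and pseudopregnant against virgin libraries (SE 0.26 in each, with shared virgin libraries), and Ccnd1 (cyclin D1) at 0.20 (SE 0.25) and 0.42 (SE 0.25). Cdkn1a, which encodes the inhibitor p21, was at -0.01 (SE 0.17) and -0.19 (SE 0.17), and the stem cell gene Lgr5 at 0.08 (SE 0.36) and 0.46 (SE 0.35). In pseudopregnant against virgin libraries this list had 11 genes higher and 13 lower (median -0.04), with Rb1 at 0.22 (SE 0.13). In pregnant against pseudopregnant libraries 8 were higher and 16 lower (median -0.04), with E2f7 at -0.55 (SE 0.28), Cdkn1b at 0.19 (SE 0.10), Ccnd1 at -0.23 (SE 0.25), Cdkn1a at 0.18 (SE 0.17), Myc at 0.00 (SE 0.26) and Lgr5 at -0.38 (SE 0.35). None of these genes passed the adjusted threshold in any comparison.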

How the data were processed

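Each library's deposited table holds whole-number counts of reads by Ensembl gene, whose totals differ between libraries, as in tables that were not normalized. The submitters' processing notes list, with no role or order, the build GRCm38 and the tools DESeq2 1.24.0, Subread 2.0.0 with featureCounts, HISAT2 2.0.4 and FastQC 0.11.5. Which annotation release and strand setting served for counting is not given in the sources, and overlapping genes may share reads. Libraries were made from poly(A) RNA with a directional NEBNext kit, per the labels' protocols. The members and gene lists were chosen with earlier results of these data known.

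Groups came from the titles. No pair of replicates was a duplicate, as their counts gave a chi-square of at least 23.7 per degree of freedom. Genes passing filterByExpr were scaled by TMM and fitted in edgeR 4.0.16 (R 4.3.3) by quasi-likelihood with 1 mean per group over 18 libraries. Tests were two-sided with Benjamini-Hochberg adjustment over 14675 genes and a threshold of 0.05. The code was tested on simulated data. Scores are mean log2 CPM deviations over a list (prior count 2). Transcript lengths are those of APPRIS principal transcripts in GENCODE M21, and genes with a mean of at least 5 CPM gave the class medians. The slope used genes with a mean of at least 10 CPM.

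Levels are given for all members. Fold changes are given for 12 fixed members, and in each comparison for the 2 replication and 2 mitosis members of smallest p and for the extremes. In other lists the 2 of smallest p, with Ccnd1, Cdkn1a, Myc and Lgr5, are named. Promoter windows came from RefSeq (GRCm38.p6). Members named for an unadjusted p under 0.05 without a library, and Cenpf between pseudopregnant and virgin libraries, were chosen after their values were seen. Alternatives were DESeq2 size factors, other filters, DESeq2 1.42.0, limma-voom (limma 3.58.1), the compared libraries alone, a replicate block, 2 covariates and each library left out. Leaving out the 3 libraries numbered 3 was added after seeing the data.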

Additional observations from a re-analysis of the deposited data

Results flagged for a closer look

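Of 108 groups of 6 values checked (34 members and both set scores, in 3 groups), 9 held a library that lay far from the other 5, and chance gives about 1 in 20 such groups. In 8 of these the library was virgin replicate 3, at the low end. It was at 13.6 CPM for Mcm4 (nearest other virgin library 25.8), 3.40 for Gins2 (7.47), 9.56 for Tyms (18.2), 7.28 for Rrm2 (16.7), 12.6 for Aurka (21.8) and 13.7 for Cenpa (23.6). Its replication score was -0.695 (nearest -0.0124) and its mitosis score -0.605 (nearest 0.0761). The 8 values are 1 library's and are not independent. That library also had the lowest Paneth cell sum of all 18 (4000 CPM) and an enterocyte sum of 72200 CPM, whose part in its low values was not tested. The ninth was Cdk1 in pseudopregnant replicate 6, at 42.8 CPM against at most 26.3 in the other 5 pseudopregnant libraries.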

How the results depend on the processing

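Over 45 gene results and their alternatives, no member passed an adjusted p of 0.05 (lowest 0.17), and 922 of 990 values kept their sign while 68 changed it, all between -0.12 and 0.24. In pregnant against virgin libraries, DESeq2 called 5 genes of all tested and the replicate block 1. Members at an unadjusted p under 0.05 there numbered 2 with the replicate block and 1 without the 3 libraries numbered 3, against 0. For pseudopregnant against virgin libraries, against 1, they numbered 2 with no filter, 0 by limma-voom, 3 with the block, 0 with the length slope and 4 without the libraries numbered 3. For pregnant against pseudopregnant libraries, against 1, they numbered 0 by limma-voom, 0 with the compared libraries alone, 2 with the block, 0 with the length slope and 0 with the enterocyte score. The share of all genes under that p moved with the same settings, from 1.58% to 7.33%, from 2.15% to 15.4% and from 1.68% to 4.21% in the 3 comparisons. In the pseudopregnant against virgin fit of the compared libraries alone, the 1 member was Hmgb2 in place of Mki67. Replicate numbers did not pair the libraries throughout. Same-numbered libraries correlated at 0.01 to 0.66, -0.48 to 0.42 and -0.46 to 0.66 in the 3 comparisons. They correlated best with their own number in 1, 2 and 3 of 6. Those numbered 3 did so in all 3 comparisons (r = 0.66, 0.38 and 0.41). The labels do not say whether a number marks a shared batch, so the block is given as an alternative only. With the block the medians were -0.18 and -0.24, 0.02 and -0.08, and -0.17 and -0.15 for replication and mitosis genes in the 3 comparisons.

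With 1 library left out, members at an unadjusted p under 0.05 numbered 0 to 5, 0 to 4 and 0 to 5 in the comparisons of pregnant with virgin, pseudopregnant with virgin and pregnant with pseudopregnant libraries, and no gene passed the adjusted threshold. The share of all genes under that p in these fits ran from 1.5% to 13.2%, from 3.66% to 22.9% and from 0.813% to 10.6%. In that order the replication medians ran from -0.31 to -0.07, from -0.09 to 0.13 and from -0.26 to -0.04, and the mitosis medians from -0.35 to -0.12, from -0.18 to 0.06 and from -0.29 to -0.07.

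With the enterocyte score as a covariate, pregnant against virgin values became positive for Mcm2 (0.08), Mcm5 (0.08), Cdt1 (0.09), Tyms (0.15), Rrm2 (0.24), Mki67 (0.19), Top2a (0.15), Cdk1 (0.04), Cdc20 (0.08), Tk1 (0.02) and Mcm6 (0.21), as did Tyms (0.15) in pseudopregnant against virgin and Tyms (0.01), Cdk1 (0.04), Aurka (0.08) and Cdc20 (0.10) in pregnant against pseudopregnant libraries. With the length slope as a covariate, pseudopregnant against virgin values changed sign for Mcm2 (-0.05), Mcm5 (-0.04), Top2a (-0.03), Cdk1 (0.03), Ccnb1 (-0.11) and Uhrf1 (-0.10), and pregnant against pseudopregnant values for Pcna (-0.10), Cdt1 (-0.01) and Stmn1 (-0.01). Without the libraries numbered 3, Rrm2 was at -0.01 in pseudopregnant against virgin libraries. The cause of these changes was not tested.

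Values of members also changed sign when 1 library was left out. In pregnant against virgin libraries Mki67 ran from -0.22 to 0.09, Top2a from -0.16 to 0.03 and Mcm6 from -0.13 to 0.10. In pseudopregnant against virgin libraries Mcm5 ran from -0.05 to 0.19, Tyms from -0.19 to 0.04, Rrm2 from -0.12 to 0.14 and Ccnb1 from -0.02 to 0.21. In pregnant against pseudopregnant libraries Pcna ran from -0.04 to 0.14, Cdt1 from -0.03 to 0.11, Cdk1 from -0.18 to 0.10, Aurka from -0.16 to 0.09 and Cdc20 from -0.13 to 0.10. The lowest count of a member in a library was 82, and the part of depth in these changes was not tested.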
